A study of Arabidopsis thaliana with 9 samples.

Results

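An STZ induction of 6 h was compared with mock treatment in the roots of Arabidopsis thaliana seedlings. The comparison took the 3 libraries of seedlings kept on 20 µM estradiol for 6 h and the 3 libraries of seedlings kept on the ethanol solvent for 24 h, 6 of the 9 libraries in the series, and 20272 genes were tested of 27655 that have an exon length. The other 3 libraries came from seedlings kept on 20 µM estradiol for 24 h. All 9 came from Col-0 seedlings of 4 to 5 days that carry p35S::XVE>>pLexA::STZ, grown on reduced-strength MS medium, so the mock roots carry the same transgene. XVE is a constitutively expressed hybrid activator that binds estradiol and then switches on the LexA promoter in front of STZ. By the study's methods, roots were dissected 5 days after transfer to the growth chamber. No mock sample was taken at 6 h: the mock roots had been treated for 24 h, and the sources used here do not give the time of day at harvest. A change between these groups can therefore belong to STZ, to estradiol itself, to the hours of treatment or to the time of day. These cannot be told apart. A single STZ-OE line was used, and among the lines the paper selected it had the highest STZ induction. The series design and the study's methods differ on how much of the lower root was taken, and whether libraries came from separate plates or sowings is not stated, so the p-values cover the spread between these samples only, and that spread may be technical.

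STZ (ZAT10) belongs to the C2H2 zinc finger factors and carries an EAR repression motif, and its transcript rises in salt, drought and cold and after immune elicitors. Roots recognise microbial patterns and their own damage peptides through receptor kinases at the cell surface, and the response includes WRKY factors, jasmonate and ethylene synthesis, wall peroxidases and tryptophan-derived defence compounds. Those compounds, the indole glucosinolates and camalexin, share their first steps with one route to auxin. Root growth also depends on wall-loosening enzymes, on aquaporins in the plasma membrane and the vacuole membrane, and on carriers for nitrate, phosphate and iron.

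STZ was measured first, as a check of the labels. The 6 h libraries had 1277.1, 1014.6 and 1253.0 CPM (a gene's count scaled to the library's counted reads), and the mock libraries 18.8, 23.0 and 29.8 CPM. The groups were far apart, at 1181.6 ± 145 CPM and 23.8 ± 5.58 CPM (SD, n = 3 each), a 49.5-fold rise (log2 5.63 ± 0.20, SE; edgeR quasi-likelihood adjusted p = 1.35e-08, Benjamini-Hochberg). An exact two-sided permutation test of this value gave p = 0.1, the smallest that 3 against 3 allows. Depth was even, at 26503926 to 27864771 counted reads in the 6 h libraries and 26169630 to 31299634 in mock. Within the 6 h group, replicate 2 stood apart from replicates 1 and 3: chi-square per gene was 14.3 and 12.9 in its pairs and 4.64 between the other two. The 15 reference genes gave no call, with a median log2 change of -0.06. All 28 listed root hair genes passed the filter on low counts in these roots.

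At the study's thresholds, an adjusted p under 0.01 and a change of at least 1.5-fold, 2662 genes differed between 6 h of estradiol and mock (13.1% of those tested). Of these, 1100 were higher (5.43%) and 1562 lower (7.71%). These shares of all tested genes are the background for each gene list below. The rises reached further than the falls: 194 genes were higher and 121 lower at least 4-fold, and 94 were higher and 32 lower at least 8-fold. The medians were alike, with a median log2 change of 0.99 among called rises and -0.92 among called falls, and the median over all genes was 0.00. In bulk samples of the lower root, fewer cells of a type and less RNA per cell cannot be told apart.

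**Figure D1:**
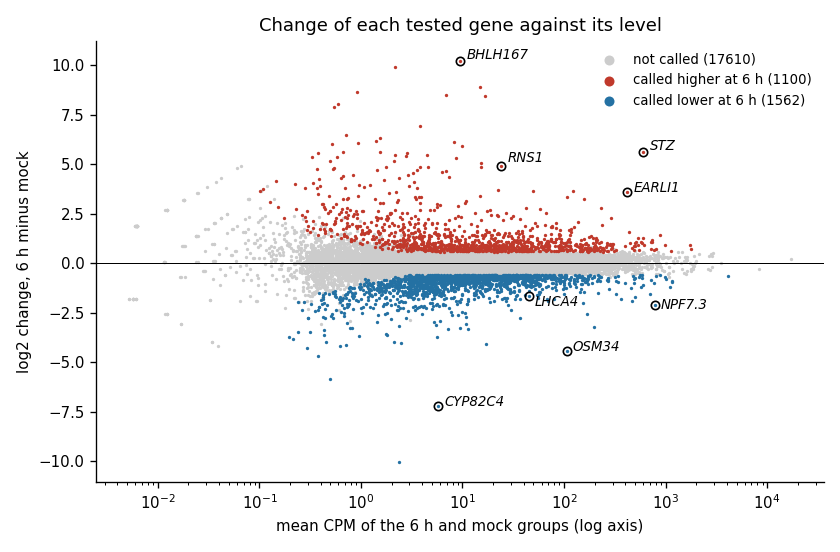
Log2 change, 6 h minus mock (vertical axis), of each of the 20272 tested genes against the mean CPM of both groups (log axis). Red points are the 1100 genes called higher, blue points the 1562 called lower and grey points the rest; fitted changes of genes with few or no reads in one group, such as BHLH167, depend on the prior count.

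Among transcription factors, the changes at 6 h were very large in a few genes that were nearly silent in mock roots. BHLH167 (AT1G10585), a basic helix-loop-helix factor, had 501, 606 and 457 reads in the 6 h libraries and 1, 0 and 0 in mock. The ratio of its summed counts was 1677 (95% exact interval 301 to 66281, counting error only). BHLH162 (AT4G20970) had 385, 401 and 350 reads at 6 h and 1 in each mock library, a ratio of 406 (139 to 1972). Both were thus switched on from a trace in every 6 h library. MYB87 had 77, 77 and 76 reads at 6 h, against 2, 1 and 0 in mock, a ratio of 82.2 (27.8 to 402).

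ERF114, ERF115 and ABR1 were in the same class. ERF114 had 7.71, 8.73 and 6.03 CPM at 6 h and 0.0368, 0.102 and 0.0315 CPM in mock. ERF115, known for its part in replacing damaged root stem cells, had 6.37, 4.64 and 5.61 CPM at 6 h and 0.11, 0.102 and 0.126 CPM in mock (log2 5.56 ± 0.35; edgeR adjusted p = 8.14e-07, Benjamini-Hochberg). ABR1, another ERF factor, had 14.1, 16.3 and 11.2 CPM at 6 h, against 0.626, 0.714 and 0.661 CPM in mock. In each of these genes the lowest 6 h library was more than 10 times the highest mock library.

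WOX11, a homeobox factor that starts new root founder cells from cambium-type cells, had 30.8, 31.0 and 27.0 CPM at 6 h and 1.03, 0.748 and 0.882 CPM in mock. That was a 33.3-fold rise (log2 5.06 ± 0.19; edgeR adjusted p = 2.11e-08, Benjamini-Hochberg). WOX5, a factor of the quiescent centre, had 7.22, 6.89 and 6.38 CPM at 6 h and 1.25, 0.51 and 0.787 CPM in mock (log2 3.01 ± 0.26). LBD11, an organ boundary type factor, had 7.04, 6.89 and 5.04 CPM at 6 h, against 0.368, 0.544 and 0.189 CPM in mock. No group overlapped in these genes. They were already called, so a lack of overlap, here and below, describes the values and is no further test. The share of all tested genes without overlap was not computed. WOX5 was the only one of 22 tested stem cell niche genes that was called. The largest log2 change in that list, 3.65, was of a gene not called. With a replicate block, or limma on log2(RPKM + 0.1), 2 niche genes were called higher. Of 8 tested WOX genes 2 were higher and 1, WOX14, was lower (log2 -1.56 ± 0.18).

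Of 59 tested WRKY factors 10 were higher and 4 lower (2 lower without 6 h replicate 3), beside 5.43% and 7.71% of all genes, and the list's median log2 change was 0.02. WRKY28, a factor of defence regulation, had 9.61, 9.39 and 7.76 CPM at 6 h and 0.442, 0.374 and 0.126 CPM in mock (log2 4.84 ± 0.38; edgeR adjusted p = 2.92e-06, Benjamini-Hochberg). WRKY48, another such factor, had means of 15.9 CPM at 6 h and 2.14 CPM in mock (log2 2.89 ± 0.25). Both separated the groups fully. MYB15, which activates lignin synthesis in defence, had 14.6, 14.3 and 11.0 CPM at 6 h and 0.589, 0.306 and 0.661 CPM in mock (log2 4.67 ± 0.26). Of 81 tested R2R3 MYB factors 12 were higher (14.8%) and 9 lower (11.1%).

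The ERF and DREB family was split, with 11 higher and 13 lower of 82 tested. DREB2C, a heat-responsive DREB factor, had 22.7, 23.5 and 19.4 CPM at 6 h and 6.81, 5.92 and 5.45 CPM in mock. DREB1C, a factor of cold acclimation, had 0.0372, 0.11 and 0.0353 CPM at 6 h, against 0.957, 1.26 and 1.29 CPM in mock (log2 -4.17 ± 0.49). ERF104, which acts downstream of a defence kinase, had 30.7, 36.4 and 37.6 CPM at 6 h and 70.5, 76.6 and 87.6 CPM in mock (log2 -1.17 ± 0.11). The groups did not overlap in these 3 genes. Among 10 tested C2H2 zinc finger relatives, STZ included, 2 were higher and 2 lower (20.0% each). ZAT11 was higher (log2 1.09 ± 0.13), while AZF2 (log2 -1.15 ± 0.16) and ZAT5 (log2 -0.81 ± 0.10) were lower. ATHB-7, a homeodomain-leucine zipper factor that abscisic acid induces, had 7.3, 9.43 and 8.11 CPM at 6 h, against 25.2, 28.5 and 31.8 CPM in mock (log2 -1.78 ± 0.13).

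**Figure D2:**
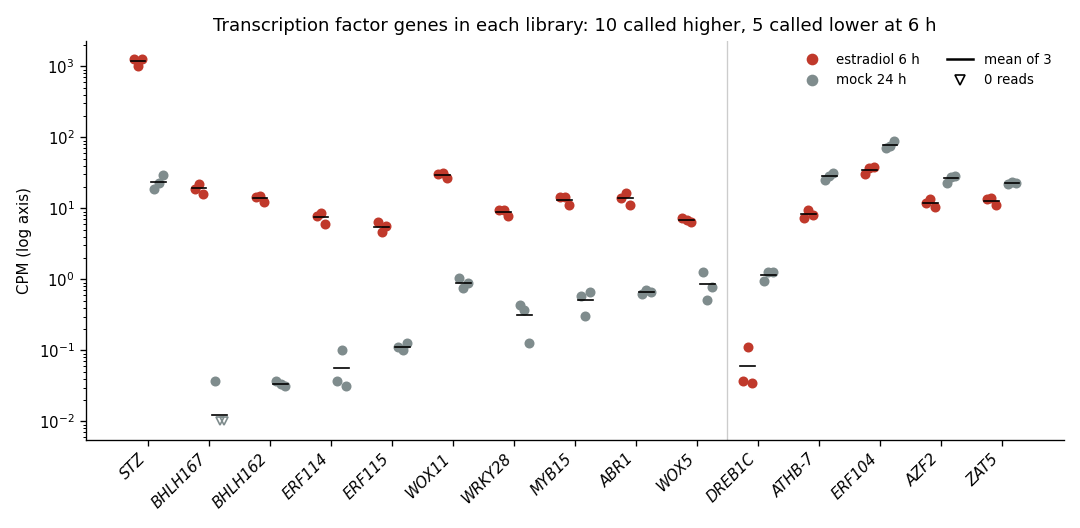
CPM (log axis) of 15 transcription factor genes in each library, with the 6 h libraries in red left of the mock libraries in grey; lines are means of 3 and open triangles libraries with 0 reads. The 10 genes on the left, among them WOX11 at 27.0 to 31.0 CPM against 0.748 to 1.03 CPM, were higher at 6 h and the 5 on the right lower, with no overlap between groups.

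Of 16 tested receptor kinases of pattern-triggered immunity 7 were higher at 6 h of estradiol than in mock and none lower, with a median log2 change of 0.40. FLS2 (AT5G46330), the receptor of bacterial flagellin, had 4.02, 4.31 and 4.16 CPM at 6 h and 0.81, 0.918 and 1.35 CPM in mock (log2 2.00 ± 0.22; edgeR adjusted p = 3.22e-05, Benjamini-Hochberg). IOS1, a kinase that acts with such receptors, had 171, 182 and 164 CPM at 6 h, against 89.9, 84.0 and 90.1 CPM in mock. LYK4, a LysM kinase of chitin perception, had 88.4, 100 and 89.5 CPM at 6 h and 47.8, 51.1 and 52.9 CPM in mock. All 6 h libraries exceeded all mock libraries in these 3 genes, and EFR, the receptor of a bacterial elongation factor, was also called higher (log2 0.94 ± 0.15), though not by limma on log2(RPKM + 1). The kinases below the receptors did not share one direction: BIK1, a cytoplasmic kinase bound to them, was higher (log2 0.85 ± 0.08), and MPK3, the kinase of the defence cascade, had 33.6, 39.3 and 36.2 CPM at 6 h, against 64.7, 72.3 and 71.2 CPM in mock (log2 -0.93 ± 0.09).

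FRK1, a kinase gene read as a marker of this response, had 14.6, 17.0 and 13.6 CPM at 6 h and 2.61, 3.2 and 2.74 CPM in mock, with a wide gap between groups. Its promoter is shown because the letters TTGAC, the core of the W-box that WRKY factors bind, stand in it more than once. The 150 bases before the FRK1 start in RefSeq's TAIR10.1 annotation (chr2:8329945-8330094, minus strand) hold 3 copies, given in capitals and beginning 119, 47 and 29 bases before the start.
FRK1: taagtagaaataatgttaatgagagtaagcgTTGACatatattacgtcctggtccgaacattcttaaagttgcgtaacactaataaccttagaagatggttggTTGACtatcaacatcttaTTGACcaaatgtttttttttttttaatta
Searched on both strands from 250 bases before to 50 after the start, TTGAC was present, in any number of copies, in 51.3% of 20211 promoters. The share was 58.7% for genes called higher and 50.6% for genes called lower. The share of promoters with 3 copies in 150 bases was not computed. A match describes the letters and is not a bound site.

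Intracellular NLR immune receptors ran the other way, with 1 of 22 higher and 7 lower and a median log2 change of -0.36 (0 higher and 4 lower without mock replicate 3). RPS2 (AT4G26090), which detects the loss of the guarded protein RIN4, had 11.2, 13.2 and 12.1 CPM at 6 h and 24.9, 23.8 and 25.0 CPM in mock, where the groups were apart by a factor of 2.02 (log2 -1.01 ± 0.09). RPP8, a downy mildew resistance gene, was low throughout, with 0.335, 0.258 and 0.247 CPM at 6 h and 0.957, 1.12 and 0.976 CPM in mock. Limma on log2(RPKM + 1) did not call it, with a log2 change of -0.23, under 1.5-fold on that scale (limma adjusted p = 0.011).

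The path from chorismate through tryptophan to indole defence compounds was higher at several successive steps. Of 26 tested genes of indole glucosinolates and camalexin 13 were higher and none lower, with a median log2 change of 0.61, and their summed level was 9051 to 9472 CPM at 6 h and 6323 to 6922 CPM in mock. ASA1, a subunit of anthranilate synthase at the entry to tryptophan, had 81.3, 76.3 and 71.5 CPM at 6 h and 33.2, 30.8 and 32.3 CPM in mock (log2 1.25 ± 0.07; edgeR adjusted p = 3.91e-07, Benjamini-Hochberg). TSA1 (AT3G54640), a tryptophan synthase subunit, had 295, 296 and 266 CPM at 6 h, against 125, 126 and 133 CPM in mock. These first steps thus roughly doubled in every library. CYP79B2, which turns tryptophan into indole-3-acetaldoxime, had 320, 249 and 304 CPM at 6 h and 114, 121 and 131 CPM in mock. CYP83B1, the next enzyme towards indole glucosinolates, had 888, 833 and 801 CPM at 6 h, against 341, 350 and 358 CPM in mock.

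Genes of the later steps were higher as well, by unequal amounts. CYP71A12, whose product leads to camalexin and related nitriles, had 48.6, 41.8 and 33.5 CPM at 6 h and 3.02, 2.65 and 3.75 CPM in mock, a 13.1-fold rise. CYP71A12 has a close copy beside it, but nearly all its reads were unique. PAD3, the last enzyme of camalexin synthesis, had 30.2, 22.6 and 20.3 CPM at 6 h, against 10.9, 7.55 and 7.56 CPM in mock. FOX1, an oxidase of indole cyanogenic compounds, had 34.1, 30.6 and 26.3 CPM at 6 h and 2.28, 5.2 and 6.8 CPM in mock (log2 2.65 ± 0.36). CYP81F2, which modifies indole glucosinolates, was higher too (log2 1.54 ± 0.20), and no group overlapped in these 4 genes. CYP82C2, which hydroxylates an indole cyanogenic compound, had 2.57, 2.84 and 2.93 CPM at 6 h, against 0.0368, 0.068 and 0.189 CPM in mock, a call that limma-voom did not make (adjusted p = 0.035). Of 16 tested aliphatic glucosinolate genes 8 were higher and none lower (4 without mock replicate 2 or mock replicate 3, 5 without 6 h replicate 1 or 6 h replicate 3). Their regulator MYB28 had 39.8, 29.3 and 37.6 CPM at 6 h and 17.4, 12.4 and 12.5 CPM in mock.

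Secreted defence proteins were divided. Of 8 tested pathogenesis-related genes 3 were higher and 3 lower. OSM34, an osmotin of the PR-5 family, had 9.38, 8.65 and 10.2 CPM at 6 h and 146, 224 and 240 CPM in mock, 21.6-fold lower at 6 h (log2 -4.43 ± 0.24; edgeR adjusted p = 2.6e-07, Benjamini-Hochberg). PR4, a hevein-like protein, had 62.5, 61.4 and 63.3 CPM at 6 h, against 221, 260 and 262 CPM in mock. PR3, a basic chitinase, had 25.9, 31.3 and 23.1 CPM at 6 h and 75.3, 88.2 and 84.6 CPM in mock. All 3 were lower in each 6 h library, by wide gaps. EP3, a class IV chitinase, had 146, 144 and 122 CPM at 6 h, against 48.3, 40.5 and 42.3 CPM in mock, so chitinases of different classes moved in opposite directions; 64.5% of the EP3 reads were unique.

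**Figure D3:**
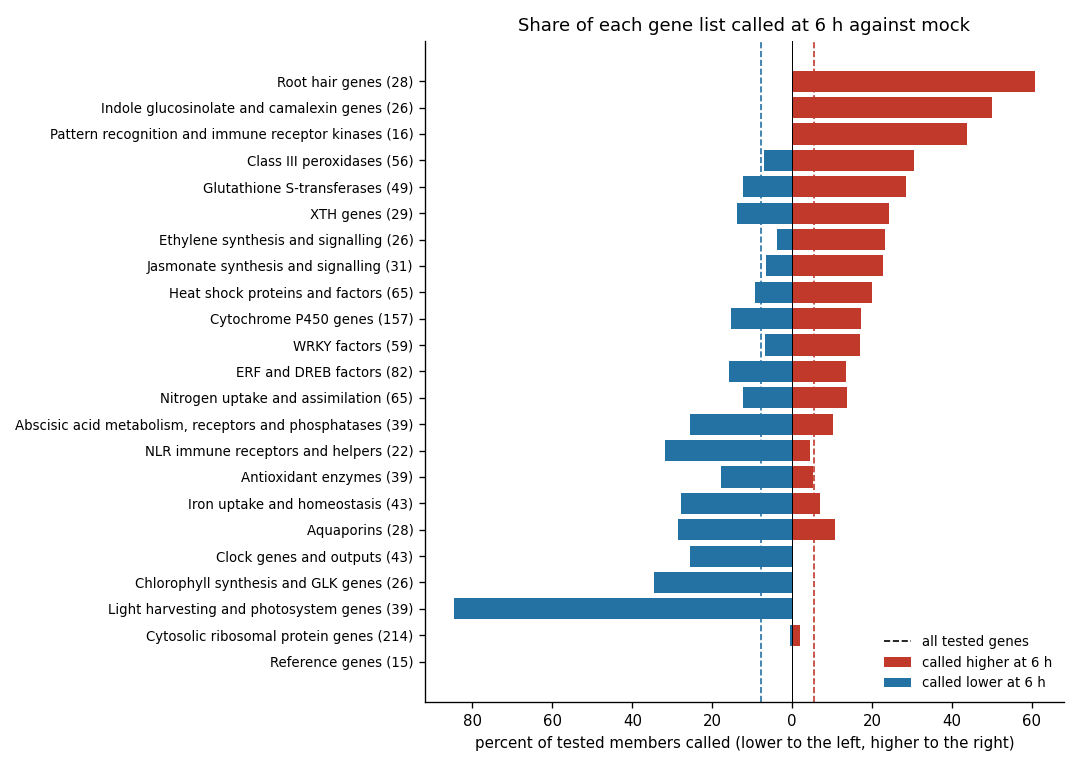
Percent of the tested members (number in brackets) of 23 gene lists that were called at 6 h against mock, with higher members in red to the right and lower members in blue to the left; dashed lines mark 5.43% and 7.71%, the shares of all tested genes. Root hair genes reached 60.7% higher, photosystem genes 84.6% lower, and reference genes had no call.

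Hormone genes changed at single enzymes and receptors. Of 31 tested jasmonate genes 7 were higher and 2 lower, with a median log2 change of 0.18, and JAZ6, a repressor that jasmonate induces, was higher by 1.08 ± 0.11 on the log2 scale. The symbols JOX2, JOX3 and JOX4 of this list matched no gene, so they are not in these counts. Of 26 tested ethylene genes 6 were higher and 1 lower. ACS8, an ACC synthase, had 3.35, 3.65 and 2.57 CPM at 6 h and 0.11, 0.272 and 0.126 CPM in mock (log2 4.19 ± 0.31; edgeR adjusted p = 2.11e-06, Benjamini-Hochberg). ACS8 was higher in all 6 h libraries, without overlap.

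In the abscisic acid list, 4 of 39 tested genes were higher and 10 lower, with a median log2 change of -0.18. The rises were 3 receptors and 1 catabolic enzyme. PYL6 had 70.3, 70.4 and 68.7 CPM at 6 h and 29.2, 25.4 and 27.5 CPM in mock. PYL5 had 121, 133 and 128 CPM at 6 h, against 56.5, 59.5 and 67.1 CPM in mock, and PYL4 was higher too (log2 1.00 ± 0.12). CYP707A4, an abscisic acid 8'-hydroxylase, had 20, 21 and 20 reads at 6 h and 0, 1 and 2 in mock, a ratio of 21.8 (95% exact interval 7.12 to 109), under 1.5-fold on the log2(RPKM + 1) scale. Falls included 2 synthesis genes. NCED3, the rate-limiting dioxygenase, had 4.8, 6.63 and 4.34 CPM at 6 h, against 12.1, 13.0 and 13.4 CPM in mock, and ABA1, the zeaxanthin epoxidase, was lower too (log2 -1.03 ± 0.07). CYP707A3, a catabolic enzyme like CYP707A4, was also among the falls (log2 -0.95 ± 0.15), so that class did not move as a whole.

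Of 30 tested gibberellin genes 4 were higher (13.3%) and 2 lower (6.67%), beside 5.43% and 7.71% of all genes. Synthesis and degrading enzymes were in both directions. GA2OX2, a degrading enzyme, had 18.0, 11.1 and 13.2 CPM at 6 h and 2.65, 3.23 and 2.68 CPM in mock, 4.94-fold higher at 6 h. GA3OX2, which makes the active form, had 2.05, 1.14 and 1.34 CPM at 6 h, against 5.04, 3.98 and 4.53 CPM in mock (log2 -1.58 ± 0.23). GA2OX1, also degrading, was lower (log2 -2.04 ± 0.36), and GA20OX5, a synthesis gene, was higher (log2 3.25 ± 0.51). Cytokinin genes had 1 rise (2 without 6 h replicate 1) and 5 falls among 32 tested, and LOG5, an activating enzyme, was among the falls (log2 -2.04 ± 0.33).

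Auxin synthesis had 6 higher and 2 lower of 20 tested genes, with 1 lower without 6 h replicate 1, 6 h replicate 2, mock replicate 2 or mock replicate 3. ASA1, TSA1 and CYP79B2 are on this list as well as on the indole path. YUC4, a flavin monooxygenase of auxin synthesis, had 17, 25 and 20 reads at 6 h and 0, 0 and 1 in mock, a ratio of 66.5 (95% exact interval 11.5 to 2668), also under 1.5-fold on that log2(RPKM + 1) scale. Auxin carriers had 2 rises (9.09%) and 4 falls (18.2%) among 22, beside 5.43% and 7.71% of all genes. LAX1, an influx carrier, had 2.76, 3.09 and 2.82 CPM at 6 h and 17.3, 18.8 and 20.5 CPM in mock, with little spread (log2 -2.71 ± 0.11; edgeR adjusted p = 3.73e-08, Benjamini-Hochberg). Its relative AUX1 had 210, 198 and 190 CPM at 6 h, against 120, 118 and 120 CPM in mock, so 2 influx carriers moved in opposite directions. BES1, a factor of brassinosteroid response, was lower (log2 -1.12 ± 0.09), with 86.7% of its reads unique.

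Enzymes of detoxification and secondary metabolism held many calls in both directions. Of 49 tested glutathione S-transferases 14 were higher and 6 lower, with a median log2 change of 0.23. GSTU12 had 13.8, 12.3 and 9.87 CPM at 6 h and 0.405, 0.306 and 0.724 CPM in mock (log2 4.61 ± 0.36). GSTF6 had 433, 430 and 360 CPM at 6 h, against 39.3, 65.6 and 72.5 CPM in mock, and 99.9% of its reads were unique although GSTF7 beside it is a close copy. Of 157 tested cytochrome P450 genes 27 were higher and 24 lower, and their extremes were far apart. CYP706A2 had 37.5, 29.4 and 21.8 CPM at 6 h, against 1.03, 1.02 and 1.01 CPM in mock (log2 4.85 ± 0.33), with 50.1% of its reads unique. At the other end, CYP82C4, which hydroxylates fraxetin to the iron-binding coumarin sideretin, had 0.149, 0 and 0.0705 CPM at 6 h and 11.5, 6.32 and 16.4 CPM in mock (log2 -7.21 ± 0.58; edgeR adjusted p = 3.6e-06, Benjamini-Hochberg).

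Class III peroxidases, secreted enzymes that make or use hydrogen peroxide in the wall, had 17 rises and 4 falls among 56 tested. PER62 had 91.3, 95.7 and 86.3 CPM at 6 h and 5.04, 6.9 and 9.7 CPM in mock (log2 3.65 ± 0.26). PER49 had 236, 176 and 171 CPM at 6 h, against 21.7, 21.5 and 13.9 CPM in mock. PER21, far more abundant in mock roots, had 603, 752 and 672 CPM at 6 h and 1512.8, 1547.6 and 1559.3 CPM in mock (log2 -1.19 ± 0.10). PER21 and PER42 (log2 -0.82 ± 0.09) were thus falls among the strongly expressed members, and PER62 and PER49 rises among members that were low in mock. Without 6 h replicate 2 or mock replicate 1, 2 of the list were called lower.

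Wall-modifying genes were split by member. Of 29 tested XTH genes, which cut and rejoin xyloglucan, 7 were higher and 4 lower. XTH24 had 38.2, 58.3 and 46.9 CPM at 6 h, against 246, 292 and 322 CPM in mock, 5.99-fold lower at 6 h. XTH20 had 69.3, 38.1 and 43.4 CPM at 6 h and 11.4, 10.9 and 8.88 CPM in mock, 4.84-fold higher at 6 h. Both were without overlap. Among 21 tested expansins 4 were higher and 2 lower (1 lower without 6 h replicate 3, mock replicate 1 or mock replicate 2, and 4 without 6 h replicate 1), and EXPA1, an expansin of lateral root founder cells, had 33.4, 21.5 and 29.9 CPM at 6 h, against 11.3, 10.2 and 10.7 CPM in mock. CWINV1, a cell wall invertase that splits sucrose, was one of the larger rises by amount, with 1328.1, 1256.9 and 1261.9 CPM at 6 h and 470, 493 and 481 CPM in mock (log2 1.41 ± 0.09).

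Root hair genes were higher at 6 h, with 17 of 28 tested called higher and none lower and a median log2 change of 0.83. PRP1, a proline-rich wall protein of hairs, had 154, 210 and 135 CPM at 6 h and 45.1, 61.0 and 81.1 CPM in mock. RHS12, a pectin methylesterase of root hairs, had 80.2, 120 and 81.7 CPM at 6 h, against 38.1, 42.9 and 49.3 CPM in mock. XTH26, a xyloglucan enzyme of root hairs, had 22.6, 37.0 and 22.8 CPM at 6 h and 6.22, 10.4 and 10.9 CPM in mock. In each, 6 h replicate 2 was the highest and mock replicate 1 the lowest. The summed level of the list had the same shape, at 2708, 4021 and 2647 CPM in 6 h replicates 1, 2 and 3 and 1549, 1783 and 2039 CPM in mock. Without 6 h replicate 2 the count was 11, and without mock replicate 1 or mock replicate 2 it was 9, with all called members still higher at 6 h. By edgeR's glmTreat, which tests for a change beyond 1.5-fold, the count was 4.

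Other lists varied within the 6 h group along with replicate 2. Cytosolic ribosomal protein genes summed to 37565, 30206 and 35117 CPM in 6 h replicates 1, 2 and 3 and to 30750, 29868 and 28096 CPM in mock, and 205 of 214 tested had a positive change, with a median log2 change of 0.21, while 4 were called higher and 1 lower. Without 6 h replicate 1, mock replicate 2 or mock replicate 3 only 1 ribosomal protein gene was called higher, and without 6 h replicate 3 there were 2. In replicate 2 the root hair sum was the highest of the group and the ribosomal sum the lowest. The part of the sampled root portion in these values was not tested. Extensin and arabinogalactan genes, many of them expressed in hairs, had 11 rises and 3 falls among 62 tested, with 7 rises without 6 h replicate 2 and 6 without mock replicate 1 or mock replicate 2.

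**Figure D4:**
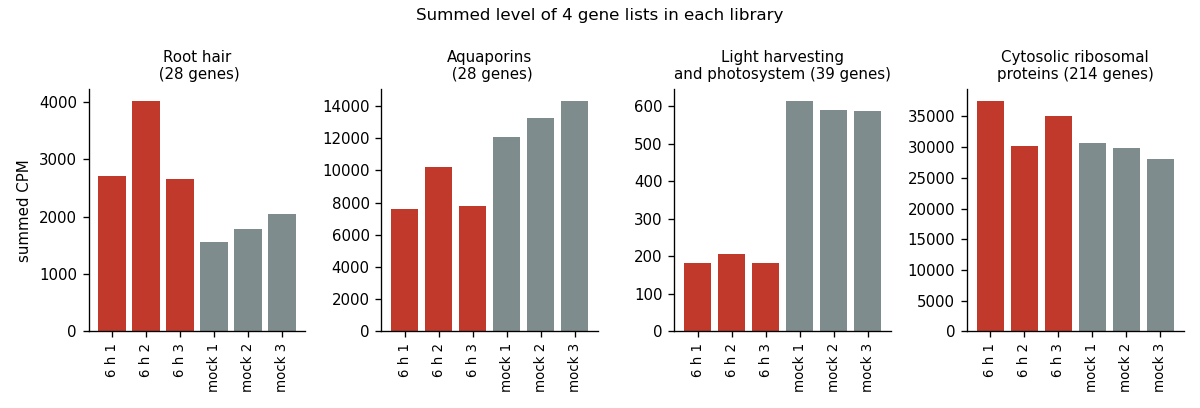
Summed CPM of 4 gene lists (vertical axes from 0) in each 6 h library in red and each mock library in grey. Root hair sums are higher and photosystem and aquaporin sums lower in every 6 h library, with replicate 2 nearest to mock for aquaporins, and ribosomal sums overlap in range, since 6 h replicate 2 at 30206 CPM lies below mock replicate 1 at 30750 CPM.

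Small heat shock proteins, chaperones that hold unfolded proteins, were part of 13 rises and 6 falls among 65 tested heat shock genes. HSP17.6 (AT5G12020), a class II member, had 5.25, 5.19 and 5.85 CPM at 6 h and 0.11, 0.17 and 0.0945 CPM in mock (log2 5.40 ± 0.37; edgeR adjusted p = 1.3e-06, Benjamini-Hochberg). HSP17.6C (AT1G53540), a class I member, had 6.85, 5.45 and 6.56 CPM at 6 h, against 0.773, 0.578 and 0.63 CPM in mock. HSP17.4A (AT3G46230) had 8.75, 8.8 and 9.17 CPM at 6 h and 2.58, 2.31 and 1.8 CPM in mock. Levels stayed low in absolute terms but did not overlap, and nearly all reads of these 3 genes were unique. HSFA6B, a heat shock factor, was lower (log2 -1.39 ± 0.20). The unfolded protein response of the endoplasmic reticulum had 1 call, a rise, among 30 tested genes, and 0 to 2 on leaving out a library of either group.

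The promoters of 2 small heat shock genes are shown because the letters GAANNTTC, 2 facing units of the heat shock element, stand close to the start. In each line the 150 bases before the start in RefSeq's TAIR10.1 annotation are given with that motif in capitals. HSP17.4A (chr3:16984868-16985017, minus strand) holds it 99 and 18 bases before the start, and HSP17.6C (chr1:19980149-19980298, plus strand) 53 bases before it.
HSP17.4A: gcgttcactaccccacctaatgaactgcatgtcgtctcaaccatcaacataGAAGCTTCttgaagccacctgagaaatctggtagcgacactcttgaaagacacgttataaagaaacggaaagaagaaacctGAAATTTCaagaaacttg
HSP17.6C: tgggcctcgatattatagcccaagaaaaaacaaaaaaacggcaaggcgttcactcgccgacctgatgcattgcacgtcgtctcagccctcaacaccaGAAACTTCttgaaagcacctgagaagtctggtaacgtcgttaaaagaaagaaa
Within 250 bases before to 50 after the start, GAANNTTC was in 4 of 11 promoters of small heat shock genes called higher (36.4%) and in 11.3% of all promoters. Its letters read the same on both strands.

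Stress-protection genes moved singly. KIN2, a cold- and abscisic-acid-induced protein, had 504, 472 and 473 CPM at 6 h and 90.7, 102 and 106 CPM in mock (log2 2.28 ± 0.09). KIN1, a close copy beside it (nearly all reads of both were unique), had means of 225 CPM at 6 h and 18.1 CPM in mock (log2 3.64 ± 0.29). Of the other 23 tested dehydration and cold proteins none was called higher and 2 were called lower. ADH1, alcohol dehydrogenase of low-oxygen metabolism, had 12.7, 8.98 and 8.22 CPM at 6 h and 1.14, 1.19 and 1.42 CPM in mock, and 5 of 18 tested hypoxia genes were higher and none lower.

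Superoxide dismutases changed in opposite directions. FSD1, the iron enzyme, had 98.8, 99.0 and 101 CPM at 6 h and 15.5, 14.4 and 15.4 CPM in mock, a 6.61-fold rise with little spread (log2 2.72 ± 0.06; edgeR adjusted p = 5.66e-10, Benjamini-Hochberg). CSD1, the cytosolic copper-zinc enzyme, had 364, 377 and 346 CPM at 6 h, against 610, 630 and 622 CPM in mock. CCS, the chaperone that loads copper into such enzymes, had 52.3, 51.6 and 49.4 CPM at 6 h and 78.8, 79.4 and 82.7 CPM in mock. A rise of the iron enzyme thus stood beside falls of a copper-zinc enzyme and its chaperone. PRXIIC, a cytosolic peroxiredoxin, had 34.8, 36.0 and 43.7 CPM at 6 h and 270, 373 and 437 CPM in mock, 9.44-fold lower at 6 h, with 84.3% of its reads unique. CAT3 (AT1G20620), a catalase, had 91.7, 69.6 and 92.9 CPM at 6 h, against 205, 219 and 207 CPM in mock. Of 39 tested antioxidant genes 2 were higher and 7 lower.

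Of 34 tested nuclease and senescence genes 7 were higher (20.6%) and 6 lower (17.6%), beside 5.43% and 7.71% of all genes, and the list's log2 changes ran between -2.58 and 5.29 with a median of 0.02. Its members among the largest rises were RNS1 and ENDO2. RNS1, a secreted ribonuclease induced by wounding and phosphate starvation, had 47.0, 47.0 and 45.6 CPM at 6 h and 1.33, 1.36 and 1.98 CPM in mock, a 29.6-fold rise (log2 4.89 ± 0.13; edgeR adjusted p = 1.86e-09, Benjamini-Hochberg). ENDO2, an endonuclease, had 18.7, 18.3 and 13.0 CPM at 6 h, against 0.699, 0.34 and 0.252 CPM in mock (log2 5.29 ± 0.33). GAD4, a glutamate decarboxylase that makes GABA, had 18.8, 16.6 and 12.8 CPM at 6 h and 0.0736, 0.34 and 0.252 CPM in mock. In these 3 genes the 6 h libraries lay more than 15 times above the mock libraries. AT2G38240, annotated as a 2-oxoglutarate-dependent oxygenase, had 20.5, 19.6 and 17.9 CPM at 6 h, against 0.405, 0.17 and 0.378 CPM in mock.

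Aquaporins, the water channels, were lower at 6 h in 8 of 28 tested and higher in 3, with a median log2 change of -0.47. TIP2;2, of the vacuole membrane, had 295, 451 and 318 CPM at 6 h and 957, 1055 and 1163.4 CPM in mock (log2 -1.58 ± 0.20). PIP1B, of the plasma membrane, had 686, 880 and 706 CPM at 6 h, against 1136.3, 1258.5 and 1304.1 CPM in mock. The family summed to 7609, 10232 and 7765 CPM in 6 h replicates 1, 2 and 3 and to 12079, 13279 and 14331 CPM in mock. Replicate 2 was thus the one nearest to mock here, while its root hair sum was the farthest from mock. NIP1;2, a channel of another subfamily, was higher (log2 1.41 ± 0.13).

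Nitrogen genes had 9 rises and 8 falls among 65 tested, and those named here lay at successive places of nitrate handling. NPF7.3, which loads nitrate into the xylem, had 316, 244 and 324 CPM at 6 h and 1310.9, 1282.5 and 1193.5 CPM in mock, 4.29-fold lower at 6 h. NPF6.3, a nitrate transporter and sensor, had 224, 257 and 224 CPM at 6 h, against 465, 428 and 451 CPM in mock. NIA2, nitrate reductase, had 725, 696 and 664 CPM at 6 h and 339, 320 and 335 CPM in mock. The transcript for xylem loading was thus lower and that for nitrate reduction higher. NRT3.1, the partner protein of high-affinity carriers, had means of 132 CPM at 6 h and 47.3 CPM in mock (log2 1.48 ± 0.15). NRT2.1, the carrier itself, was low, with 3.16, 2.47 and 1.45 CPM at 6 h and 0.589, 0.34 and 0.472 CPM in mock. AAP2, an amino acid permease, had 181, 162 and 244 CPM at 6 h, against 711, 744 and 758 CPM in mock (log2 -1.91 ± 0.15).

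Iron genes had 3 rises (5 without 24 h replicate 1) and 12 falls among 43 tested (27.9% lower, beside 7.71% of all genes), while 28 were not called and the median log2 change was -0.20. IRT1, the iron uptake carrier of the root surface, had 1.49, 0.589 and 3.49 CPM at 6 h and 30.2, 19.1 and 47.6 CPM in mock (log2 -4.11 ± 0.59; edgeR adjusted p = 0.000229, Benjamini-Hochberg). NAS1, which makes the iron chelator nicotianamine, had 34.1, 24.3 and 32.8 CPM at 6 h, against 110, 101 and 104 CPM in mock. FER1, the iron store ferritin, was lower as well, with 58.6, 75.7 and 66.1 CPM at 6 h and 126, 128 and 126 CPM in mock. IRT1 and FER1, which respond to iron in opposite directions in wild-type roots, were thus both lower. OPT3, a phloem carrier of iron, had 25.7, 16.3 and 21.0 CPM at 6 h and 10.3, 10.2 and 10.7 CPM in mock.

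Phosphate genes had 5 rises (12.8%) and 2 falls (5.13%) among 39 tested, beside 5.43% and 7.71% of all genes. PHT1;1, an uptake carrier with close copies (73.2% of its reads were unique), had 1000.3, 995 and 935 CPM at 6 h and 470, 460 and 483 CPM in mock. PHO2, the enzyme that marks such carriers for breakdown, had 128, 129 and 123 CPM at 6 h, against 273, 236 and 239 CPM in mock, so the carrier and its negative regulator changed in opposite directions. In the phloem list, 5 of 25 tested were higher and 1 lower (2 lower without 6 h replicate 3): SUC2, the sucrose loader of companion cells, was higher (log2 0.89 ± 0.10) and SWEET11, a sucrose exporter, had 6.4, 5.56 and 11.0 CPM at 6 h and 17.4, 24.4 and 31.4 CPM in mock.

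Genes of the photosynthetic apparatus were lower at 6 h than in mock. Of 54 genes listed, 39 were tested, 33 were lower and none higher, with a median log2 change of -1.48, and 8 had no reads in any of the 6 libraries. Their summed level was 181 to 205 CPM at 6 h and 588 to 615 CPM in mock, low in both groups. LHCA4, a light-harvesting protein of photosystem I, had 21.9, 21.9 and 21.2 CPM at 6 h and 68.7, 68.9 and 66.1 CPM in mock (log2 -1.65 ± 0.06; edgeR adjusted p = 2.2e-08, Benjamini-Hochberg). PSBO2, of the oxygen-evolving complex, had 2.01, 2.32 and 2.54 CPM at 6 h, against 17.6, 19.8 and 20.4 CPM in mock. RBCS-1A, a small subunit of Rubisco, had 1.56, 0.957 and 1.3 CPM at 6 h and 12.1, 13.3 and 13.5 CPM in mock. Groups were tight and distant in these genes. Of 26 tested chlorophyll synthesis genes and GLK factors 9 were lower and none higher, CHLM (log2 -1.53 ± 0.11) and CHLH (log2 -1.06 ± 0.12) among them. The photosystem and chlorophyll lists were also set up as markers of shoot tissue. The part of the sampled tissue in these values was not tested.

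Of the members that fell, 3 are shown with their promoters because the G-box, CACGTG, which light-responsive factors bind, is in each of them. The 150 bases before the start in RefSeq's TAIR10.1 annotation are given with CACGTG in capitals. LHCA4 (chr3:17495034-17495183, minus strand) holds it 88 bases before the start, PSBQ2 (chr4:2673244-2673393, minus strand) 145 and 77 bases before and PSBQ1 (chr4:11334202-11334351, plus strand) 83 and 55 bases before.
LHCA4: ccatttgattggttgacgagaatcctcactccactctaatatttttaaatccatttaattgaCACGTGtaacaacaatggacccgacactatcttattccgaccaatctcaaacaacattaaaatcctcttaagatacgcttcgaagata
PSBQ2: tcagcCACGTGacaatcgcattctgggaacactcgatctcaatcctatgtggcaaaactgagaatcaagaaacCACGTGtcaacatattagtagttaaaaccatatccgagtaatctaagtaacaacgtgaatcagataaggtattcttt
PSBQ1: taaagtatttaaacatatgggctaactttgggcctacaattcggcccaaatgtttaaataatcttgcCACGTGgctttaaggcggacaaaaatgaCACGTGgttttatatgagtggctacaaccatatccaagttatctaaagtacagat
PSBQ2, a subunit of the oxygen-evolving complex, had 1.04, 1.55 and 0.917 CPM at 6 h and 7.36, 6.73 and 6.52 CPM in mock. Its relative PSBQ1 had 1.68, 1.8 and 1.34 CPM at 6 h, against 5.52, 3.84 and 3.65 CPM in mock. From 250 bases before to 50 after the start, CACGTG was in 12 of the 33 photosystem genes called lower (36.4%), in 8.55% of all promoters, in 12.1% of genes called lower and in 7.73% of genes called higher. It was in 0 of the 17 root hair genes called higher. The related letters ACGTGTC, an abscisic acid response element, were in 8.9% of genes called lower, 3.55% of genes called higher and 4.82% of all, and the motifs overlapped in 553 promoters. The spaced repeat ACTNNNACT, a candidate for EPF-type zinc finger binding, was in 13.6% of genes called higher, 14.5% of genes called lower and 13.8% of all promoters.

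The single genes THI1 and THIC of plastid thiamine synthesis were also lower. THI1, which makes the thiazole part of thiamine, had 0.894, 0.7 and 0.776 CPM at 6 h and 10.5, 9.79 and 10.9 CPM in mock, 13.1-fold lower at 6 h. THIC, which makes the pyrimidine part, had 2.87, 2.25 and 2.12 CPM at 6 h, against 13.0, 13.4 and 12.9 CPM in mock. Both groups were well apart. Of 43 tested clock genes and outputs 11 were lower and none higher, with a median log2 change of -0.34. RVE2, a morning-phased MYB-like factor, had 9.98, 13.3 and 11.8 CPM at 6 h and 32.4, 32.9 and 31.8 CPM in mock. LNK2, a coactivator of evening genes, had 18.2, 21.1 and 17.4 CPM at 6 h, against 33.2, 38.9 and 38.4 CPM in mock. Photosystem and clock genes follow the hour of the day in wild-type plants, and hour and treatment cannot be told apart in the 6 h comparison. At 24 h of estradiol against the same mock libraries, 33 of the 39 photosystem genes were called lower and 0 higher (median log2 -1.39). Of the 43 clock genes 18 were lower and 1 higher (median log2 -0.45), beside 18.0% and 17.6% of all genes. The part of the hour in these values was not tested.

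Cell cycle genes were called lower at shares near that of all genes (7.71%). Of 38 tested G2/M genes 2 were lower (5.26%) and none higher (0 or 1 lower on leaving out any one 6 h library, mock replicate 1 or mock replicate 2), and of 52 tested G1/S genes 3 were lower (5.77%) and none higher (1 lower without mock replicate 2). CYCD1;1, a D-type cyclin of the G1 phase, had 14.7, 16.7 and 16.6 CPM at 6 h and 43.8, 42.0 and 45.2 CPM in mock (log2 -1.45 ± 0.08). REM4.1, a remorin of the plasma membrane, was a further large fall, with means of 2.08 CPM at 6 h and 20.7 CPM in mock (log2 -3.32 ± 0.15).

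Called genes that followed each other along a chromosome, counting tested genes only, formed runs of one direction. Among the rises there were 12 runs of 3 and 4 runs of 4. Among the falls there were 10 runs of 3, 1 of 4 and 1 of 5. Untested genes can lie between members, and the number of runs expected from the share of called genes was not computed. On chromosome 2 (TAIR10.1, 12619630 to 12629640) GSTU6, GSTU5, GSTU4 and GSTU3, glutathione S-transferases, were higher by 1.37, 1.06, 2.56 and 2.36 on the log2 scale. GSTU4 had 41.2, 53.5 and 42.7 CPM at 6 h and 7.66, 8.84 and 6.87 CPM in mock. On chromosome 4 (7401087 to 7414955) a run of lipid transfer-like genes held EARLI1, with 877, 697 and 749 CPM at 6 h and 73.5, 68.0 and 53.3 CPM in mock, and AZI1, a gene of systemic immunity (log2 1.92). These genes are close copies, but nearly all reads of EARLI1 and AZI1 were unique. On chromosome 3 (9592727 to 9640918) CYP71B23, CYP71B3, AT3G26240, CYP71B26 and CYP71B34 were all lower, CYP71B3 by the most (log2 -3.96 ± 0.34), although AT3G26240 was not called without 6 h replicate 2, 6 h replicate 3 or mock replicate 2.

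Only 4 genes had 0 reads in all mock libraries and at least 10 in each 6 h library, and 1 gene was the reverse. CAD8 (AT4G37990), a cinnamyl alcohol dehydrogenase-like enzyme of defence, had 100, 129 and 127 reads at 6 h and 0, 0 and 0 in mock, at least 127-fold higher when mock is set to a floor of 3 counts in all. AT1G71470, an uncharacterised protein, had 54, 47 and 48 reads at 6 h and none in mock, at least 53.3-fold higher, and 6080, 3850 and 2633 reads at 24 h. The other 2 rises were AT4G09250 and the mitochondrial gene ATMG00220, and the reverse was AT2G38790, with 0 reads at 6 h and 41, 181 and 207 in mock. In these last 3 genes nearly all reads also mapped elsewhere: of unique reads AT4G09250 had 10 at 6 h, and ATMG00220 and AT2G38790 had 0 in both groups, so their counts cannot be placed.

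The 24 h libraries were read beside these values. Both estradiol groups were set against the same 3 mock libraries, so the changes share them, and each is given on its own. FLS2 (AT5G46330) had a log2 change of 2.00 ± 0.22 at 6 h and of -1.36 at 24 h, both called. CYP79B2 was at 1.25 ± 0.11 at 6 h and -0.78 at 24 h, CYP81F2 at 1.54 ± 0.20 and -1.60, and OPT3 at 1.01 ± 0.16 and -1.35, so these were called higher at 6 h and lower at 24 h. Of the 26 indole genes 13 were called higher and none lower at 6 h, and 6 were called higher and 11 lower at 24 h, where 17.6% of all genes were called higher and 18.0% lower. Of the 28 root hair genes 17 were called higher at 6 h and 1 at 24 h. Differences between these changes were not tested.

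Other genes held one direction in both. NRT2.1 was at 2.33 ± 0.34 on the log2 scale at 6 h and 6.70 at 24 h, CYP82C2 at 4.71 ± 0.77 and 8.84, and LAX1 at -2.71 ± 0.11 and -3.83. A further set was called at 6 h alone: FRK1 (0.27 at 24 h), KIN2 (-0.24), NIA2 (-0.47), PRXIIC (-0.44) and PR4 (0.47) did not pass at 24 h, which does not show that they had returned to mock level.

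**Figure D5:**
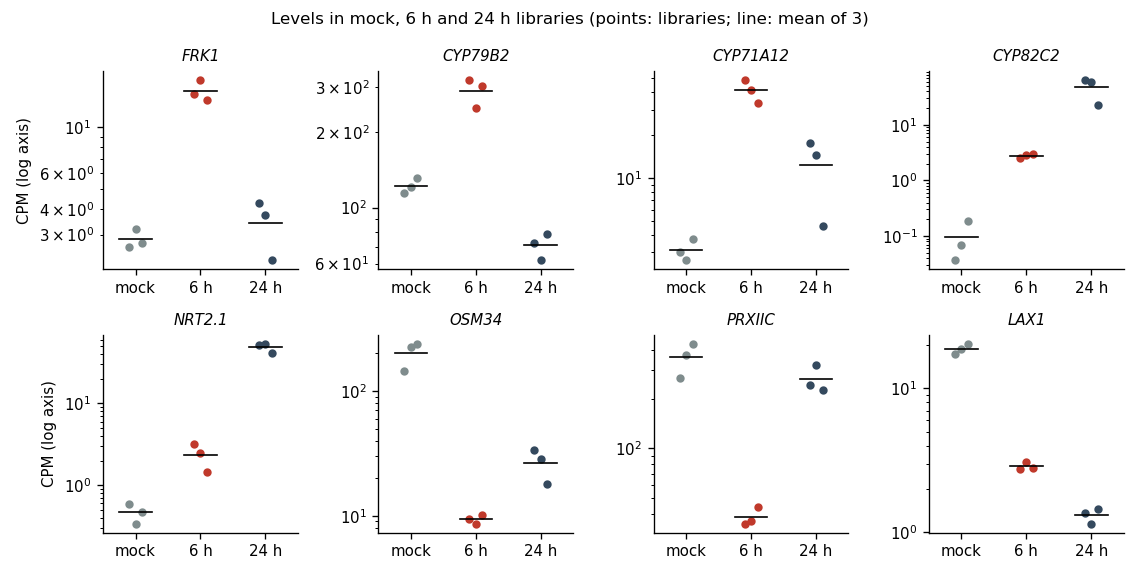
CPM (log axes, each with its own range) of 8 genes in mock, 6 h and 24 h libraries, with points for libraries and lines for means of 3. FRK1, CYP79B2 and CYP71A12 were highest at 6 h, OSM34 and PRXIIC lowest at 6 h, CYP82C2 and NRT2.1 highest at 24 h and LAX1 lowest at 24 h.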

How the data were processed

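After trimming, the authors used CLC Genomics Workbench and TAIR10, and deposited counts of total and unique exon reads per gene with RPKM and TPM values scaled from them. Sources used here do not give the strand setting, so antisense genes that overlap can share reads. Of 32833 listed genes, 5178 have an exon length of 0 and were left out. Total exon counts of all 9 libraries, grouped by the labels, were fitted in edgeR 4.0.16 (R 4.3.3; TMM, filterByExpr, glmQLFit, glmQLFTest), and 6 h was set against mock. Calls needed an adjusted p (Benjamini-Hochberg) under 0.01 and at least 1.5-fold. SE values are the log2 change divided by the root of F. With 1 to 3 reads in a group, a ratio of counts is given with an exact interval, and the floor is 3 counts over a group. Floors and intervals cover counting error only. The fit was tested on simulated data. The genes named and the 84 gene lists were chosen with earlier results of these data known. The naming rule took STZ, the 15 largest rises and falls by log2 change and by CPM, up to 4 members of each list, all called members of lists, switched genes and runs. AT2G38240 was chosen after its values were seen. Promoters and gene positions came from RefSeq's TAIR10.1. Alternatives were other scalings, filters, thresholds and tests (DESeq2 1.42.0, limma 3.58.1), unique reads, RPKM, a replicate block and leaving out each library.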

Additional observations from a re-analysis of the deposited data

How the results depend on the processing

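Under 24 alternatives the counts of 1100 higher and 1562 lower genes stayed within 1.5 times, apart from 3 settings. With at least 1 CPM in 3 libraries and a mean of at least 5 CPM, 717 genes were higher. With a looser adjusted p of 0.05 and any fold, 3623 were higher and 4011 lower, 7634 in all. With edgeR's glmTreat against 1.5-fold, 397 were higher and 475 lower, 872 in all. List counts moved with these settings too. By glmTreat 4 root hair genes and 1 extensin or arabinogalactan gene were higher, against 17 and 11. With the filter on a mean of 5 CPM, 4 WRKY and 4 heat shock genes were higher, against 10 and 13. Leaving out each library in turn gave 879 to 1146 higher, 1235 to 1594 lower and 2114 to 2732 called genes, and an STZ log2 change of 5.48 to 5.82. Of the 2662 calls, 2599 were made again with DESeq2 and 2023 with limma on log2(RPKM + 1). Among the left-out libraries this number was lowest without mock replicate 2, at 2061, and highest without 24 h replicate 2, at 2639. The median of all genes lay between -0.03 and 0.02 under the scalings. With a replicate block 1183 genes were higher and 1630 lower; same-numbered 6 h and mock libraries had deviations correlated at 0.373, -0.0387 and -0.123, so for this comparison the numbers were not taken as pairs, although same-numbered 6 h and 24 h libraries were at 0.397, 0.585 and 0.232. Depth limits genes with few reads in a group, whose ratios have wide intervals. Genes were named largely for a large change or a small p in these same data, so their kept calls do not stand for all 2662. Of the 139 genes named, 138 kept their call without each library in turn, 136 of 136 tested on unique reads kept theirs and 119 passed glmTreat. With limma on log2(RPKM + 1), a scale that understates changes of low genes, 5 lost their call (EFR, RPP8, CYP707A4, YUC4 and AT3G26240), and AT3G26240 also with a pseudocount of 0.1. No gene named was called in the opposite direction under any alternative.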
